A study of Rattus norvegicus with 3 samples.

Results

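HA-TET2 peaks that fall in untranslated exons or just beyond gene ends numbered 736 of 35044 peaks over both deposited lists, 143 of 9523 in the Myocd-LSD1 list and 593 of 25521 in the Control list. They were taken by the deposited annotation of each peak, as every peak called "5′ UTR", "3′ UTR" or "Downstream", the last of these being the flank within 3 kb beyond a gene end. The cells were rat aortic smooth muscle cells of 2 lines, one labelled Myocd-LSD1 (1 sample) and one labelled WT, called Control here (2 samples). All 3 samples received an adenovirus carrying HA-tagged TET2 (Adv-HA-TET2) for 24 h, and 500000 cells per assay went into CUT&Tag with an antibody to the HA tag. In CUT&Tag a transposase tethered to the antibody cuts and tags DNA beside the bound protein. The design sets the sites of the tagged protein in the Myocd-LSD1 line against those in Control. The labels do not say what was done to make the Myocd-LSD1 line or whether it is 1 clone, and TET2 was overexpressed in both lines, so the peaks are those of a tagged, added protein. Both Control samples share 1 peak list and no input or untagged sample was used here, so no spread between replicates can be given and no test across samples was made. Intervals are exact 95% Clopper-Pearson intervals that cover counting error only.

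TET2 is a dioxygenase that oxidises methylated cytosine in DNA, a step toward its demethylation. Myocardin (Myocd) is the coactivator of SRF that drives the contractile genes of smooth muscle, and LSD1 is a histone demethylase. The 5′ untranslated region is the part of a messenger RNA that ribosomes scan before the start codon and can be split over several exons, so that its later exons can lie far into the gene. The 3′ untranslated region follows the stop codon, carries the signals for cleavage and polyadenylation and many microRNA target sites, and usually lies in the last exon. The flank beyond it is where transcription terminates.

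The peak caller's fold is the pile-up of fragments at the summit over the local background, with 1 added to each. From the deposited fold and p-value the number of fragments at the summit was recovered for all 143 Myocd-LSD1 and all 593 Control peaks of the 3 classes. The lowest background recovered was 0.0633 fragments in the Myocd-LSD1 list and 0.175 fragments in the Control list, a Control level 2.77 times as high. The lists also differ in length, so peak numbers and heights are set against those of all peaks throughout. How far this difference in depth contributes to any count was not tested. Of 9 smooth muscle marker genes, 1 had a Myocd-LSD1 peak and 6 had a Control peak of any class, and none had a peak of the 3 classes. Of marker genes of other cell types, 2 and 7 of 8 endothelial genes had a Myocd-LSD1 and a Control peak, as did 2 and 4 of 5 neural, 0 and 4 of 6 macrophage and leukocyte, 0 and 1 of 4 hepatocyte and 0 and 2 of 5 other muscle genes. Peak lists do not measure expression, so they give no check of the cell type.

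Each of the 3 classes held fewer peaks in the Myocd-LSD1 list than in the Control list, and the untranslated regions stood further below the lists as a whole than the gene flanks did. The 5′ UTR class had 9 Myocd-LSD1 peaks against 71 Control peaks, a ratio of 0.127 (0.0557 to 0.255). The 3′ UTR class had 45 against 249, a ratio of 0.181 (0.129 to 0.249). Both intervals lie below 0.376 (0.367 to 0.385), the ratio of all peaks outside the 3 classes. The Downstream class had 89 Myocd-LSD1 and 273 Control peaks, a ratio of 0.326 (0.254 to 0.416), whose interval includes that ratio. Exon peaks had the ratio closest to that of the UTR classes, 0.122, while intron peaks had 0.297, distal intergenic peaks 0.372 and promoter peaks 0.548.

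Within the Downstream class the ratio changed little with distance. It was 0.318 within 1 kb of a gene end (28 Myocd-LSD1 and 88 Control peaks), 0.284 from 1 to 2 kb (25 and 88) and 0.371 from 2 to 3 kb (36 and 97), with overlapping intervals. As a share of its own list, the 5′ UTR class made up 0.0945% of Myocd-LSD1 peaks and 0.278% of Control peaks, and the 3′ UTR class 0.473% and 0.976%. The Downstream class made up 0.935% (0.751 to 1.15) of Myocd-LSD1 peaks and 1.07% (0.947 to 1.20) of Control peaks. Among peaks of the 3 classes, Downstream peaks were therefore 62.2% (53.8 to 70.2) in the Myocd-LSD1 list and 46.0% (42.0 to 50.1) in the Control list.

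**Figure D1:**
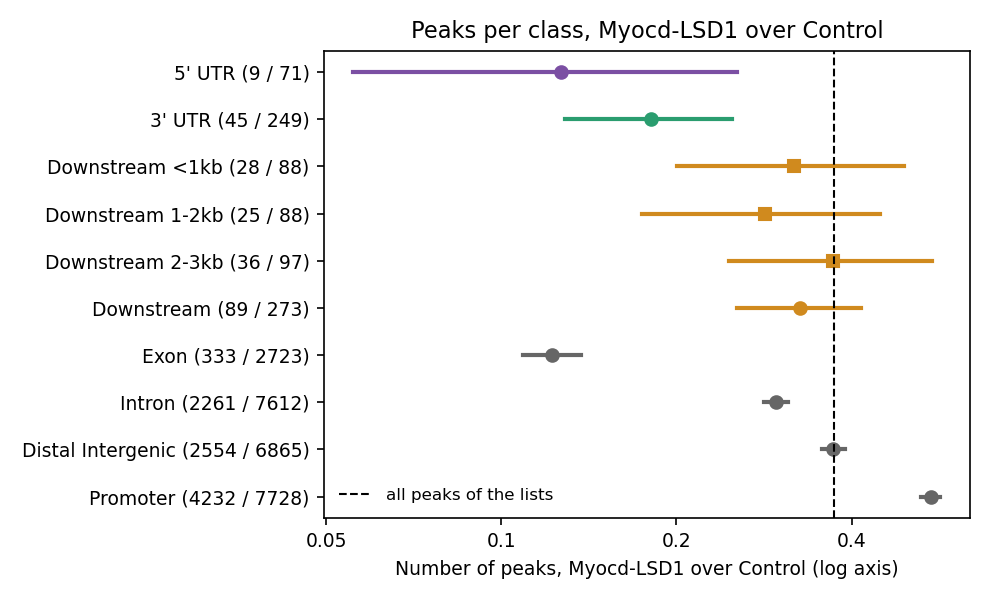
Number of Myocd-LSD1 peaks over number of Control peaks for each annotation class (points; squares are the distance bins of the Downstream class) with exact 95% intervals (lines), on a log axis; the counts stand beside each name, Myocd-LSD1 before Control, and the dashed line is the ratio of all peaks, 0.373. The 5′ UTR and 3′ UTR points, 0.127 and 0.181, lie left of the line with their whole intervals, while the Downstream interval, 0.254 to 0.416, includes it.

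Most Control peaks of these classes had no Myocd-LSD1 peak at the same place. Overlap by at least 1 bp was found for 80 of 593 Control peaks of the 3 classes, 13.5% (10.8 to 16.5), where 22.0% of all Control peaks had it. By class it was 9 of 71 5′ UTR peaks (12.7%, 5.96 to 22.7), 26 of 249 3′ UTR peaks (10.4%, 6.94 to 14.9) and 45 of 273 Downstream peaks (16.5%, 12.3 to 21.4). Outside the classes it was 8.52% of exon, 14.4% of intron, 18.9% of distal intergenic and 37.8% of promoter peaks of the Control list. In the other direction 66 of 143 Myocd-LSD1 peaks of the 3 classes overlapped a Control peak, 46.2% (37.8 to 54.7), where 59.4% of all Myocd-LSD1 peaks did. These were 5 of 9 5′ UTR peaks, 17 of 45 3′ UTR peaks (37.8%, 23.8 to 53.5) and 44 of 89 Downstream peaks (49.4%, 38.7 to 60.3). Outside the classes, 56% of exon, 52% of intron, 51% of distal intergenic and 69% of promoter peaks of the Myocd-LSD1 list overlapped. Intron and distal intergenic peaks thus lay inside the interval of the 3 classes, and exon and promoter peaks above it. The 5′ UTR share has the widest interval, 21.2% to 86.3%, and includes the value of all peaks.

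Overlapping peaks mostly carried the same class in both lists. All 5 Myocd-LSD1 5′ UTR peaks and all 17 3′ UTR peaks that overlapped met a Control peak of their own class, as did 41 of 44 Downstream peaks. Of the Control peaks that overlapped, 5 of 9 5′ UTR peaks, 17 of 26 3′ UTR peaks and 41 of 45 Downstream peaks met a Myocd-LSD1 peak of their own class. The others met mainly intron peaks, 3 for the 5′ UTR class and 6 for the 3′ UTR class. Control peaks of the 3 classes had a median width of 344 bp and Myocd-LSD1 peaks one of 237 bp, and a peak of a different width can be assigned to a different class.

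**Figure D2:**
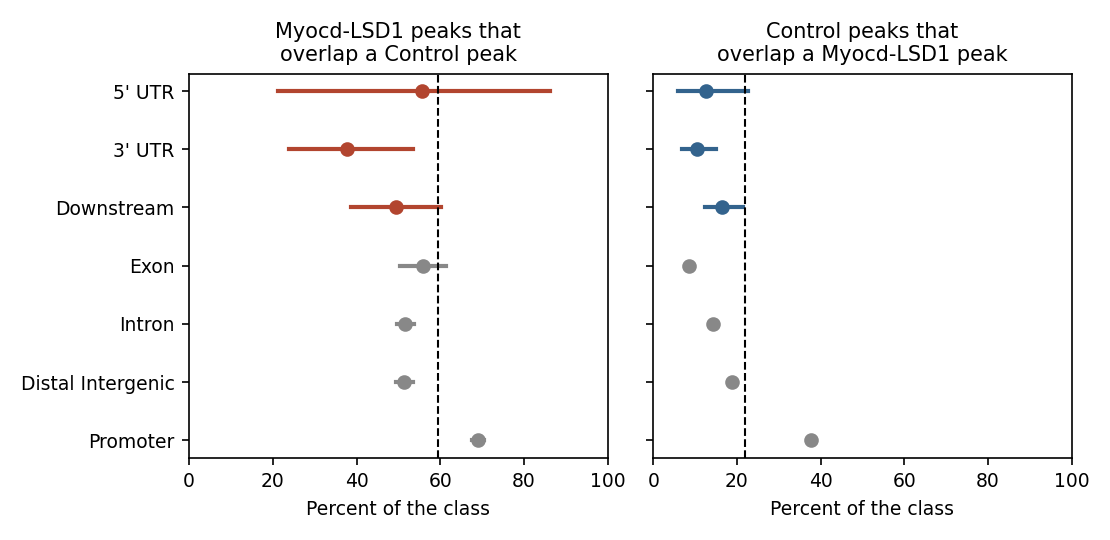
Percent of each class that overlaps a peak of the other list by at least 1 bp, with exact 95% intervals; the left panel gives Myocd-LSD1 peaks and the right panel Control peaks, with the 3 classes in colour, other classes in grey and the value of the whole list as a dashed line (59.4% and 22.0%). Control 3′ UTR peaks, at 10.4%, lie nearest to Exon peaks, at 8.52%, while promoter peaks stand at 37.8%.

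The number of fragments at the summit went with the overlap. At heights above 5 fragments the interval of the UTR classes did not meet that of all Control peaks outside the 3 classes, promoter peaks included. Of Control UTR peaks with above 20 fragments, 6 of 31 met a Myocd-LSD1 peak, 19.4% (7.45 to 37.5), where 54.0% (51.7 to 56.3) of Control peaks outside the 3 classes did. At 11 to 20 fragments the share was 17 of 104 UTR peaks, 16.3% (9.82 to 24.9), against 35.9% (34.6 to 37.2) outside the classes. At 6 to 10 fragments it was 8 of 114, 7.02% (3.08 to 13.4), against 19.1%, and at up to 5 fragments 4 of 71, 5.63% (1.56 to 13.8), against 8.42%. Downstream peaks stood between, with 9 of 21 above 20 fragments (42.9%, 21.8 to 66.0) and 20 of 74 at 11 to 20 fragments (27.0%, 17.4 to 38.6). Control Exon peaks had shares of 29.9% above 20 fragments, 11.4% at 11 to 20, 3.75% at 6 to 10 and 1.99% at up to 5. These lay below the UTR shares in all but the tallest band, and their intervals overlapped those of the UTR peaks at every height. Control intron peaks had shares of 48.8%, 24.9%, 11.2% and 4.48% in the same bands. Their intervals overlapped those of the UTR peaks in every band but the tallest. Distal intergenic intervals met the UTR intervals only at up to 5 fragments, and promoter intervals met them at no height. Myocd-LSD1 peaks of the 3 classes with 6 to 10 fragments overlapped a Control peak in 32 of 39 cases, 82.1%, where 82.0% of such peaks outside the classes did. Those with up to 5 fragments did so in 25 of 95 cases, 26.3%, where 40.1% did outside the classes. At that height it was 50.2% of promoter, 36.8% of intron, 34.7% of exon and 32.0% of distal intergenic Myocd-LSD1 peaks.

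**Figure D3:**
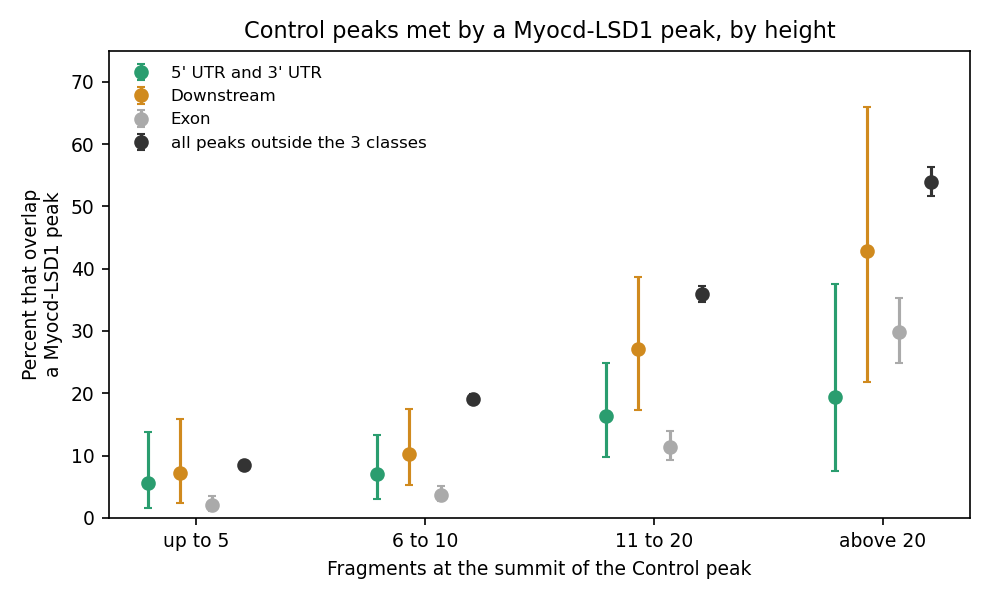
Percent of Control peaks that overlap a Myocd-LSD1 peak, by the number of fragments at the Control summit, for 5′ and 3′ UTR peaks together, Downstream peaks, Exon peaks and all peaks outside the 3 classes; bars are exact 95% intervals. Above 20 fragments the UTR peaks stand at 19.4%, Exon peaks at 29.9% and all other peaks at 54.0%. In every lower band the Exon peaks stand below the UTR peaks.

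Most peaks without a partner lay more than 10 kb from the nearest peak of the other list, as did most unmatched peaks of all classes. Of unmatched Myocd-LSD1 peaks, 4 of 4 in the 5′ UTR class, 18 of 28 in the 3′ UTR class and 34 of 45 in the Downstream class lay that far from a Control peak, in all 72.7%, where 66.5% of all unmatched Myocd-LSD1 peaks did. Of unmatched Control peaks, 53 of 62 in the 5′ UTR class, 185 of 223 in the 3′ UTR class and 185 of 228 in the Downstream class lay that far from a Myocd-LSD1 peak, where 83.5% of all unmatched Control peaks did. At Bag5, a co-chaperone of HSP70, the Downstream peaks of the 2 lists stood 19 bp apart, and at Pex26, a peroxisome assembly factor, the 3′ UTR peaks stood 56 bp apart.

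Myocd-LSD1 peaks of the 3′ UTR and Downstream classes had fewer fragments at the median than that list as a whole, while 5′ UTR peaks did not. The median was 4 fragments for each of these classes and 5 for the 5′ UTR class, against 5 over all Myocd-LSD1 peaks. It was also 4 for the exon, intron and distal intergenic peaks of that list, and 6 for its promoter peaks. In the Control list it was 8 for the 5′ UTR, 9 for the 3′ UTR and 8 for the Downstream class, against 7 over all peaks. No more than 3 fragments were found for 21 of 45 (46.7%) Myocd-LSD1 3′ UTR, 32 of 89 (36.0%) Downstream and 0 of 9 5′ UTR peaks, where 30.2% of all peaks of that list had so few. Over the 3 classes together the Control share was 5.90%, where 6.47% of all Control peaks had so few. The median deposited fold was 4.78 in the Myocd-LSD1 list and 5.45 in the Control list for 5′ UTR peaks, 4.21 and 5.50 for 3′ UTR peaks, and 4.40 and 5.25 for Downstream peaks. Over all peaks it was 4.72 in the Myocd-LSD1 list and 5.24 in the Control list. Among the top 10% of their own list by fold were 7 of 143 Myocd-LSD1 peaks of the 3 classes (4.90%, 1.99 to 9.83) and 64 of 593 Control peaks (10.8%, 8.41 to 13.6).

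All 9 Myocd-LSD1 5′ UTR peaks were assigned to named genes. The highest lay in Ipo5, which encodes importin 5, a carrier of proteins into the nucleus (rn6 chr15:106256927-106257771). It had a fold of 10.2 and 18 fragments in the Myocd-LSD1 list, and the Control peak over it (chr15:106256789-106257860) had a fold of 10.6 and 24 fragments. It lies 13393 bp from the start site, inside the gene, and was the only 5′ UTR peak of that list in its top 10% by fold. The peak assigned to Zfp652, a zinc finger transcription factor, had a fold of 6.65 and 7 fragments in the Myocd-LSD1 list against 4.11 and 5 fragments in the Control list. Dimt1, a ribosomal RNA methyltransferase, had 5.99 and 6 fragments against 4.88 and 5 fragments. These were the 2 of 5 overlapping 5′ UTR pairs with a higher fold in the Myocd-LSD1 list.

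Btd, the biotin-recycling enzyme biotinidase, had a fold of 4.49 with 6 fragments in the Myocd-LSD1 list and 5.14 with 13 fragments in the Control list. Ttc39a, a tetratricopeptide repeat protein, had 4.21 with 4 fragments and 5.16 with 6 fragments. The 4 Myocd-LSD1 5′ UTR peaks without a Control partner had 4 or 5 fragments each. They lay in Mmaa (fold 5.13), needed for mitochondrial vitamin B12 metabolism, Pura (4.78), a DNA- and RNA-binding protein, Atf7ip (4.54), a partner of the histone methyltransferase SETDB1, and Ppp2r5d (4.34), a regulatory subunit of a protein phosphatase. So the 5 genes with a 5′ UTR peak in both lists were 55.6% of the Myocd-LSD1 genes of the class and 7.14% of the Control genes. The same shares were 45.5% and 8.10% for 3′ UTR genes, and 47.7% and 15.9% for Downstream genes.

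The 10 highest Control 5′ UTR peaks with established gene symbols had folds of 8.46 to 11.1 and 20 to 75 fragments, and 2 of them overlapped a Myocd-LSD1 peak. One was Ipo5. The other was Cdkn1a, the cyclin-dependent kinase inhibitor p21 (chr20:6356323-6357237), with a fold of 8.46 and 53 fragments in the Control list. The Myocd-LSD1 peak over it, annotated to an exon, had a fold of 3.80 and 12 fragments. The remaining 8 had no Myocd-LSD1 peak over them. Myo9b, an unconventional myosin, had the highest fold, 11.1 with 28 fragments (chr16:19686605-19687655). Ankrd63, an ankyrin repeat protein, had 10.5 with 31 fragments.

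Cbarp, a regulator of voltage-gated calcium channels, had the most fragments of any Control 5′ UTR peak, 75 with a fold of 9.39 (chr7:12439537-12440959), and the nearest Myocd-LSD1 peak was 15907 bp away. The Cbarp peak also lay over Stk11, another gene named in the lists. Others among them were Gdpd5 (9.87), a glycerophosphodiester phosphodiesterase, Fam180b (9.28), Cers1 (9.11), a ceramide synthase, and Camkk2 (8.77), a kinase that activates AMPK. The peak assigned to Gdpd5 lay before the start of that gene, and the one assigned to Fam180b beyond its end. Lower Control 5′ UTR peaks that did overlap included Nfkbiz, an inhibitor-like regulator of NF-kappaB, with a fold of 4.28 in the Myocd-LSD1 list and 5.55 in the Control list. Mob3a, of the MOB family of kinase adaptors, had 3.69 in the Myocd-LSD1 list and 4.86 in the Control list.

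The highest Myocd-LSD1 3′ UTR peaks mostly had a Control partner. Among the 10 highest after provisional symbols were passed over, folds ran from 4.99 to 7.61 with 5 to 11 fragments, and 7 overlapped a Control peak. These 10 include the placeholder symbol NEWGENE_1306267, without a Control partner. Outside the 3 classes, 82.0% of Myocd-LSD1 peaks with 6 to 10 fragments overlapped, and 40.1% of those with up to 5. Exoc3l4, a relative of an exocyst subunit, had a fold of 7.61 and 11 fragments in the Myocd-LSD1 list against 8.83 and 17 fragments in the Control list. Eif2b2, a subunit of the guanine nucleotide exchange factor of translation initiation, had 7.18 in the Myocd-LSD1 list and 5.52 in the Control list, with 8 fragments in each. Klhl6, a Kelch-type ubiquitin ligase adaptor, had 6.38 and 7 fragments against 8.53 and 12 fragments. Mtap, an enzyme of methionine salvage, had 5.90 and 6 fragments against 6.09 and 7 fragments, and Tp53i11, a p53-induced protein, 5.99 and 9 fragments against 6.69 and 16 fragments. In all, 3 of 17 overlapping 3′ UTR pairs had the higher fold in the Myocd-LSD1 list, and none had more fragments there.

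Control 3′ UTR peaks held higher folds, and most of the highest had no Myocd-LSD1 peak over them. The 10 highest with established symbols had folds of 9.53 to 12.6 and 15 to 57 fragments, and 4 overlapped. Timm22, the core of an inner membrane import complex of mitochondria (chr10:64563553-64564084), had a fold of 12.6 and 25 fragments, and the Myocd-LSD1 peak over it had 6.10 and 8. The peak assigned to Pbx4, a homeobox factor, had 7.27 in the Myocd-LSD1 list and 11.9 in the Control list. Mok, a serine/threonine kinase, had 5.16 in the Myocd-LSD1 list and 11.2 in the Control list. The peak assigned to Dync2li1, a light intermediate chain of the ciliary dynein, had 4.92 in the Myocd-LSD1 list and 9.95 in the Control list.

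The Control 3′ UTR peaks without a partner were led by Snrnp35, a protein of the minor spliceosome, with a fold of 12.6 and 26 fragments. It was followed by Sh2b2 (10.8), an adaptor of receptor tyrosine kinases, Slc25a29 (10.7), a mitochondrial amino acid carrier, and Cnn3 (10.6), an actin-binding calponin. Ercc2 (9.89), a helicase of TFIIH, and Arhgap23 (9.53), a GTPase-activating protein, completed the set. Arhgap23 had the most fragments of any Control 3′ UTR peak, 57 (chr10:85443472-85444749), and no Myocd-LSD1 peak within 52223 bp. Among Control 3′ UTR peaks with above 20 fragments, 3 of 20 (15%) overlapped a Myocd-LSD1 peak. Of Control peaks of that height, 29.9% of Exon peaks and 54.0% of those outside the 3 classes did. The other 17 of the 20 were unmatched, with 5009 bp as the shortest distance to a Myocd-LSD1 peak. They included Wfs1, a membrane protein of the endoplasmic reticulum, with 49 fragments, Ywhag, a phosphoserine-binding adaptor, with 48, and the signalling ligand Wnt4 with 24.

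The 2 highest folds of the Myocd-LSD1 peaks in the 3 classes belonged to Downstream peaks assigned to Sema4f and C2. The Sema4f peak lay beyond the end of that gene, and the C2 peak before the start of C2. The 10 highest Downstream peaks with established symbols had folds of 5.78 to 12.8 and 6 to 20 fragments, and 8 overlapped a Control peak. Outside the 3 classes, 82.0% of Myocd-LSD1 peaks with 6 to 10 fragments did, and 96.3% of those with 11 to 20. Sema4f, a semaphorin guidance factor, had a fold of 12.8 and 19 fragments in the Myocd-LSD1 list (chr4:113735469-113735774) against 9.29 and 23 fragments in the Control list. The peak assigned to C2, a complement protease, had 11.5 and 20 fragments against 13.2 and 71 fragments. Gpi, a glycolytic isomerase, had 8.62 and 12 fragments against 6.01 and 11 fragments. Cldn11, a tight junction protein, had 6.94 in the Myocd-LSD1 list and 6.29 in the Control list, with 7 fragments in each, and Tuba1c, an alpha-tubulin, had 6.70 and 6.32. Adamtsl4, a secreted matrix protein (fold 6.41, 9 fragments), and Kcnk12, a potassium channel subunit (6.08, 9 fragments), had no Control partner.

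Control Downstream peaks included the highest fold of all 736, 15.1 with 30 fragments at Ranbp3, a Ran-binding protein of nuclear export (chr9:10387231-10387651), where the Myocd-LSD1 peak had 4.40 and 4. The 10 highest with established symbols had folds of 10.1 to 15.1, and 5 overlapped. Btbd19, a BTB domain protein, had 4.98 in the Myocd-LSD1 list and 10.6 in the Control list. Tmem173, the STING adaptor of innate immunity, had 5.43 and 10.6, and Wdr45, an autophagy factor, 8.19 and 10.2. Without a partner were Snx4 (13.4), a sorting nexin, Pinlyp (11.6), Tpst2 (10.4), a tyrosylprotein sulfotransferase, Galnt2 (10.3), an enzyme that starts O-linked glycosylation, and Nsg2 (10.1), a neuronal vesicle protein. Over all 44 overlapping Downstream pairs the fold was higher in the Myocd-LSD1 list in 15.

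**Figure D4:**
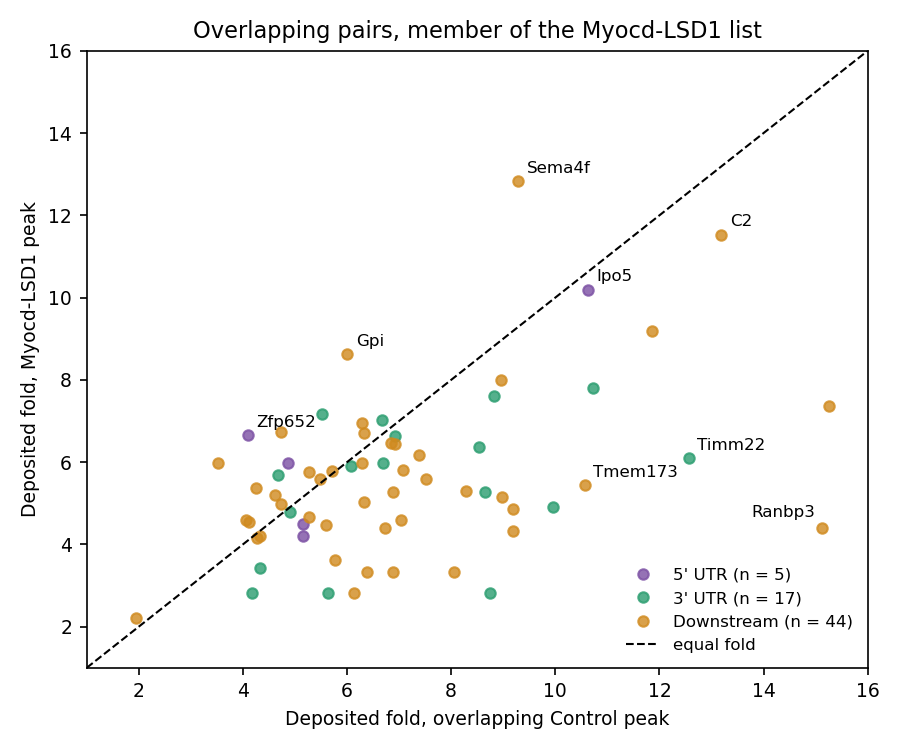
Deposited fold of each Myocd-LSD1 peak of the 3 classes that overlaps a Control peak (vertical axis) against the fold of that Control peak (horizontal axis), coloured by class; the dashed line marks equal folds. Sema4f, at 12.8 against 9.29, lies above the line and Ranbp3, at 4.40 against 15.1, farthest below it; 20 of 66 pairs lie above the line.

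Over all 66 overlapping pairs the Myocd-LSD1 fold was at the median 0.873 times the Control fold, with a range of 0.291 to 1.70. Over all 5656 overlapping Myocd-LSD1 peaks the median was 0.840, and the fold was higher in the Myocd-LSD1 list in 31.0% of them, where it was in 30.3% of the 66. The number of fragments was higher in the Myocd-LSD1 list in 5 of 66 pairs (7.58%), with a median ratio of 0.513, where over all overlapping peaks it was in 9.72%, with a median ratio of 0.583. Folds depend on the background of each list, since 1 is added above and below, so the ratio of folds is not a ratio of binding.

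The assigned gene is the one whose start site is nearest, and the untranslated region or end that gave the class can belong to another transcript. Inside the assigned gene lay 8 of 9 Myocd-LSD1 and 53 of 71 Control 5′ UTR peaks, but 21 of 45 (46.7%) and 127 of 249 (51.0%) 3′ UTR peaks. Another 14 Myocd-LSD1 and 92 Control 3′ UTR peaks lay outside their assigned gene and inside a different gene named in the lists. The Control peak assigned to Sh2b2 lay in Cux1, a homeobox factor, that of Ercc2 in Ppp1r13l, that of Snrnp35 in Rilpl1, that of Mok in Wdr20 and that of Dync2li1 in Plekhh2. Of Downstream peaks, 58 of 89 (65.2%) in the Myocd-LSD1 list and 153 of 273 (56.0%) in the Control list lay within 3 kb beyond the end of their assigned gene. Any gene named in the lists ended within that distance for 80 of 89 and 227 of 273. The Control peak assigned to Tpst2 lay beyond the end of Crybb1, a lens crystallin, that of Snx4 beyond Osbpl11 and that of Galnt2 beyond Pgbd5. The Myocd-LSD1 peak assigned to Cldn11 lay before the start of Cldn11 and beyond the end of Skil. That of C2 lay beyond the end of LOC102553878. The Myocd-LSD1 peak assigned to Gpi and the Control peaks assigned to Ranbp3 and Wdr45 lay before the starts of these genes. In both lists the peak assigned to Slc30a4 lay before its start, and the peak assigned to Zfp652 lay beyond its end.

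3′ UTR peaks inside their own gene lay close to its end, a position largely set by the annotation that chose them. On an axis that runs along the gene with 0 at its end, the median summit lay at -1113 bp in the Myocd-LSD1 list and at -1262 bp in the Control list. It lay within 1 kb of the end for 9 of 21 Myocd-LSD1 and 59 of 127 Control peaks, and in the last 20% of the gene for 15 of 21 and 103 of 127. Timm22 was among the closest, with the Myocd-LSD1 summit at -47 bp and the Control summit at 20 bp. 5′ UTR peaks inside their gene had their summit at the median at 26.1% of the gene's length in the Myocd-LSD1 list and at 30.2% in the Control list. Downstream peaks of their own gene, which the rule limits to 3 kb, began at the median 1931 bp beyond its end in the Myocd-LSD1 list and 1573 bp beyond it in the Control list.

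**Figure D5:**
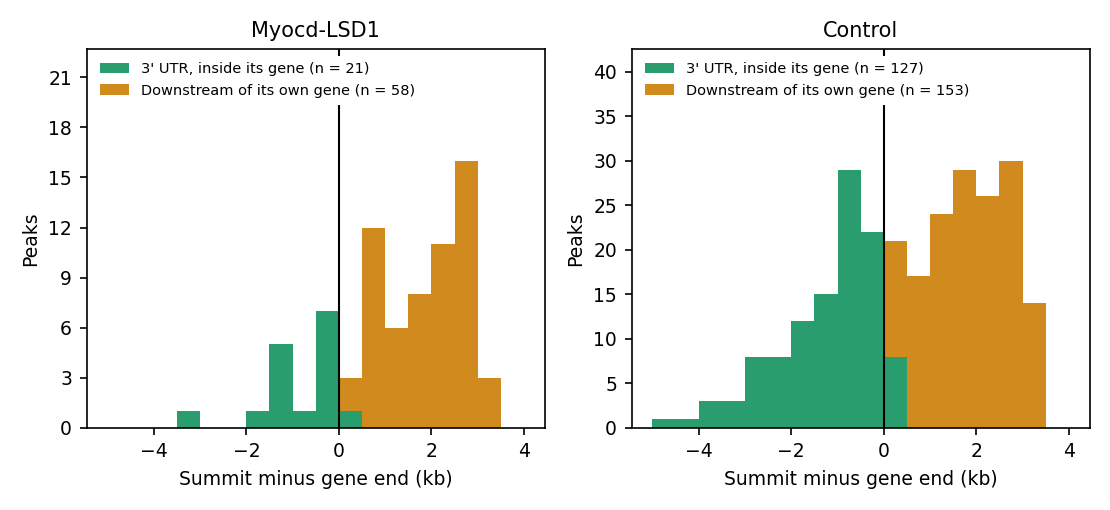
Position of the peak summit relative to the end of the assigned gene, in kb along the direction of transcription, for 3′ UTR peaks inside their gene and Downstream peaks within 3 kb of their own gene's end, stacked in bins; Myocd-LSD1 on the left and Control on the right, with different vertical axes. Not shown are 5 Myocd-LSD1 and 17 Control 3′ UTR peaks more than 5 kb before the end. In both lists 3′ UTR summits lie mostly in the last 2 kb before the end, as their annotation largely sets.

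The classes begin where promoters stop, at 3 kb from a start site. The members nearest to a start site lay 3436 bp (Btd), 3144 bp (RGD1561667) and 3238 bp (Dlx2) away for the 5′ UTR, 3′ UTR and Downstream classes of the Myocd-LSD1 list. In the Control list they lay 3024 bp (Fam180b), 3015 bp (Rab24) and 3052 bp (Csf2) away. The farthest promoter peaks lay 2994 bp away in the Myocd-LSD1 list and 3000 bp away in the Control list. The Downstream peaks farthest beyond their own gene's end were Gnat3, at 2953 bp in the Myocd-LSD1 list, and Pdcd1, at 2975 bp in the Control list.

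A minority of the genes of these peaks had a Myocd-LSD1 promoter peak. The shares over all genes of a list stand beside theirs, but that set holds genes that entered it through a promoter peak. Of 141 Myocd-LSD1 genes, 27 (19.1%) had a Myocd-LSD1 promoter peak, where 53.7% of all genes of that list did. Of 575 Control genes, 109 (19.0%) had a Myocd-LSD1 promoter peak, where 25.4% of all genes of that list did, and 214 (37.2%) had a Control one, where 52.2% did. A Control peak of any class was found for 108 of the 141 Myocd-LSD1 genes (76.6%), where 81.2% of all genes of that list had one. A Myocd-LSD1 peak of any class was found for 276 of the 575 Control genes (48.0%), where 46.2% did. In all, 69 genes had a peak of the 3 classes in both lists, 48.9% of the Myocd-LSD1 genes and 12.0% of the Control genes. No like share is given for genes of other classes, so whether this sharing is low was not tested.

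Of the 3 classes, Downstream peaks had the highest share assigned to a non-coding transcript. It was 32.6% (23.0 to 43.3) in the Myocd-LSD1 list and 28.2% (23.0 to 33.9) in the Control list, against 19.9% and 22.0% of all peaks, and it lay below the 38.1% and 37.2% of distal intergenic peaks. For 3′ UTR peaks it was 8.89% and 15.3%, and for 5′ UTR peaks 0 of 9 Myocd-LSD1 peaks and 7.04% of Control peaks.

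MicroRNA genes were the nearest start for 0 Myocd-LSD1 and 4 Control peaks of the classes, where 38 Myocd-LSD1 and 133 Control peaks of any class were assigned to a microRNA gene. The peak of Mir21 (chr10:73898631-73899104) was a Downstream peak 3197 bp from the microRNA's start, beyond the end of Vmp1, an autophagy gene, with a fold of 5.95 and 15 fragments. miR-21 is abundant in vascular smooth muscle. Mir129-1 was assigned a Downstream peak with a fold of 7.97. The 3′ UTR peak assigned to Mir1249 (5.82) lay inside Npap60, 11001 bp beyond the microRNA. The one assigned to Mir3558 (3.77) lay inside Ttc7a, 20727 bp beyond the microRNA. The mature sequences of these 4 genes, 1 arm of each, are given from RefSeq (GRCr8 assembly) 5′ to 3′ to show which microRNAs are meant, with the seed, bases 2 to 8, in capitals.
rno-miR-21-5p: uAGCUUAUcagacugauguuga
rno-miR-129-5p: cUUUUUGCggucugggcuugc
rno-miR-1249: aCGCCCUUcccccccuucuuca
rno-miR-3558-3p: aCUGUGGAggguuucuaugu
The 4 seeds differ from each other.

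Genes with several peaks of the classes numbered 2 in the Myocd-LSD1 list and 16 in the Control list. Matn4, which encodes the matrix protein matrilin 4, was in both. Its 2 Myocd-LSD1 Downstream peaks (chr3:160870295-160872028) each overlapped a Control Downstream peak. The first had a fold of 6.73 in the Myocd-LSD1 list against 4.74 in the Control list, with 12 fragments in each, and the second 5.27 against 6.88. Both lie beyond the end of Sdc4, a syndecan of focal adhesions, and upstream of Matn4 itself. Nfu1, an iron-sulfur cluster protein, had 2 low Myocd-LSD1 3′ UTR peaks with folds of 3.42 and 3.63, both inside Aak1, a kinase of endocytosis, and without a Control partner.

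In the Control list 6 genes had peaks of 2 classes. Ipo5 had the 5′ UTR peak described above and a 3′ UTR peak with a fold of 3.37 and 4 fragments. Mob3a had a 3′ UTR peak of 8.83 with 42 fragments beside its 5′ UTR peak of 4.86 with 25, and only the 5′ UTR peak had a Myocd-LSD1 peak over it. Pias4, a SUMO ligase, and Cmtm6, a membrane protein that stabilises PD-L1, had a 3′ UTR and a Downstream peak each, none of them overlapping. Rere, a nuclear corepressor, had 2 5′ UTR peaks, and Bend4 and Tifa, an adaptor of NF-kappaB signalling, had 2 3′ UTR peaks each, none overlapping.

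For the lists of gene symbols by function given below, the number of peaks of the 3 classes among all peaks of a list's genes is set beside 1.50% of all Myocd-LSD1 peaks and 2.32% of all Control peaks. The lists are partial, so each count speaks of the listed symbols and not of every gene of that kind. A Control Downstream peak before the start of the tropomyosin gene Tpm2 was assigned to it (3.96) and had no Myocd-LSD1 peak over it. Smooth muscle transcription factors had 0 of 42 Myocd-LSD1 and 1 of 127 Control peaks, a 5′ UTR peak assigned to Tead4, a TEA domain factor (6.32), that lay upstream of its start and inside Tulp3. Matrix and adhesion genes had 0 of 67 and 2 of 196, a Downstream peak beyond the end of Tnc, tenascin C (5.08), and one assigned to Fbln5, fibulin 5 (3.20), that lay before its start.

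Growth factor and receptor genes had 1 of 34 Myocd-LSD1 and 2 of 119 Control peaks in the classes. The endothelin receptor Ednra had a 3′ UTR peak in both lists, with 2.81 and 2 fragments in the Myocd-LSD1 list against 4.17 and 4 fragments in the Control list, and Egfr a Control 5′ UTR peak of 4.36. Cell cycle genes had 0 of 38 and 2 of 79, Cdkn1a and, Downstream, Ccnd1, cyclin D1 (4.20). TGF-beta and BMP genes had 0 of 39 and 1 of 110, in the 3′ UTR of Smurf1, a ubiquitin ligase of SMAD proteins (5.42).

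A list of 92 homeobox and fate genes had 0 of 22 Myocd-LSD1 and 4 of 84 Control peaks in the classes, the Control share being 4.76%. They were the 3′ UTR peaks of Tbx1 (8.44), Hoxd3 (6.66) and Tbx4 (4.60) and the 5′ UTR peak of Meis1 (5.40), all transcription factors of embryonic patterning, and none of these 4 overlapped a Myocd-LSD1 peak. Homeobox genes outside that list were among the members of both peak lists, with overlapping peaks assigned to Pbx4, to Drgx (3′ UTR, 2.81 in the Myocd-LSD1 list and 8.75 in the Control list) and to Dlx2 (Downstream, 4.66 and 5.27). No peak of the classes was assigned to the listed symbols of early response factors (32 symbols, 25 Myocd-LSD1 and 58 Control peaks of any class), chromatin and DNA methylation genes (121 symbols, 69 and 178), RNA splicing and translation genes (61 symbols, 54 and 95) or ion channels and calcium handling (55 symbols, 30 and 85). Snrnp35, Eif2b2 and Kcnk12, described above, are among the genes of the last 2 kinds outside these lists. Atf7ip, a partner of a histone methyltransferase, and Rere, a nuclear corepressor, had 5′ UTR peaks and are likewise outside the chromatin list. Nor was any assigned to the listed endothelial, macrophage or hepatocyte markers, to collagens or to mitogen-activated kinases.

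Neural markers had 0 of 5 Myocd-LSD1 and 1 of 12 Control peaks in the classes. The neuronal tubulin Tubb3 had a 3′ UTR peak of 8.99 with 21 fragments in the Control list, over which the Myocd-LSD1 peak had 5.06 with 5. Skeletal and cardiac muscle markers had 1 of 5 Myocd-LSD1 and 2 of 20 Control peaks. The cardiac troponin Tnnt2 had a 3′ UTR peak in the Myocd-LSD1 list (3.78) and was assigned a Downstream peak elsewhere, beyond the end of Pkp1, in the Control list (6.06), and Myl2, a myosin light chain, had a Control Downstream peak (3.36).

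Families taken by symbol were larger. Solute carriers had 5 of 123 Myocd-LSD1 and 10 of 376 Control peaks in the classes, with Slc30a4, a zinc transporter (5.28 in the Myocd-LSD1 list and 8.65 in the Control list), and Slc6a7, a proline transporter (5.16 and 8.97), overlapping. Zinc finger genes had 2 of 148 and 6 of 388, and transmembrane protein genes 2 of 69 and 9 of 196. Tripartite motif and F-box genes had 0 of 56 Myocd-LSD1 and 7 of 153 Control peaks, led by the 3′ UTR peaks of Trim72 (9.34) and Trim80 (8.10). Phosphatase subunits had 3 of 47 Myocd-LSD1 and 2 of 80 Control peaks, with a Downstream peak assigned to Ppp1r27 and beyond the end of P4hb in both (4.16 and 4.27). Genes with Ube or Usp symbols had 0 of 40 and 3 of 86.

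Over the chromosomes, the Control peaks of the classes departed most from all Control peaks on chromosome 12. It held 2 of 143 Myocd-LSD1 peaks of the classes (1.40%), where it held 3.49% of all peaks of that list, and 42 of 593 Control peaks (7.08%), where it held 4.39% of all. Among them were the Control peaks of Snrnp35, Sh2b2, Camkk2, Tpst2, Ywhag and Zfp316.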

How the data were processed

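CUT&Tag for HA-TET2 was done in 3 samples of rat aortic smooth muscle cells. The submitters' processing notes name Bowtie2, deepTools, MACS2 and ChIPseeker and the rn6 build, with no versions. The authors deposited 1 annotated peak list per line, and nothing read here says whether the 2 Control samples were pooled before calling. Each row of the deposited lists holds a fold over background (a ratio), a −log10 p-value, a −log10 q-value, the nearest gene and an annotation. The lowest deposited −log10 q was 1.31 in the Myocd-LSD1 list and 1.32 in the Control list. The first line of each deposited list holds column names and was not counted as a peak.

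Peaks were taken by annotation. The deposited starts count from 0 (6765 of 6765 tested distances), and coordinates are printed counting from 1. Fragments at the summit were recovered from fold and p-value for 99.9% of Myocd-LSD1 and 99.8% of Control peaks, on a method tested on simulated data. Overlap needed 1 bp. Intervals are exact Clopper-Pearson at the 95% level. Python 3.11.15, pandas 2.3.3 and SciPy 1.17.1 were used. Alternatives were a −log10 q minimum of 2, at least 5 fragments, a shortened Control list, assembled chromosomes only, reciprocal overlap of 50% and summits within 250 bp.

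Named genes are, on assembled chromosomes and without provisional symbols, the 10 peaks of highest fold per class and list, overlapping Control peaks by fold, up to 4 per gene list, and genes with several members. Symbols that begin with NEWGENE were not counted as provisional. Peaks at the class limits, those with above 20 fragments, pairs a few bp apart and a host gene are named outside that rule. The classes and the 27 gene lists were chosen with earlier results of these data known. A few results by gene and gene list are not reported here. The rn6 genome was not used here, so no peak sequence is printed.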

Additional observations from a re-analysis of the deposited data

How the results depend on the processing

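Of 48 alternative values for the 9 results (3 ratios of peak numbers and 6 overlap shares), 30 fell inside the interval of the value as reported. With the Control list shortened to the length of the Myocd-LSD1 list, the ratio of Myocd-LSD1 over Control peaks became 0.300 for the 5′ UTR class, 0.385 for the 3′ UTR class and 0.864 for the Downstream class, where all peaks give 1 by construction. The Myocd-LSD1 peaks with a Control partner then were 11.1%, 22.2% and 33.7% in the same classes (39.1% for all peaks), and the Downstream Control peaks with a Myocd-LSD1 partner 28.2% (38.7% for all peaks). With at least 5 fragments in both lists the ratio was 0.0826 for the 3′ UTR and 0.181 for the Downstream class (0.252 for all peaks), and the Myocd-LSD1 share with a partner 72.2% and 72.1% (78.7% for all peaks). With a −log10 q of at least 2 these ratios were 0.118 and 0.246 (0.304 for all peaks), and the Downstream Myocd-LSD1 share 62.3% (71.4% for all peaks). With reciprocal overlap of 50% the Downstream Myocd-LSD1 share with a partner was 24.7% (38.6% for all peaks), and the Control shares 5.63% for the 5′ UTR, 6.02% for the 3′ UTR and 8.79% for the Downstream class (14.4% for all peaks). Thus the 5′ UTR and 3′ UTR ratios stayed below that of all peaks under these settings. The Downstream ratio was also below it under each. Its interval included the ratio of all peaks with the shortened Control list and with the −log10 q minimum. With at least 5 fragments its interval, 0.1279 to 0.2519, ended just below the ratio of all peaks, 0.2524, so there the Downstream class also fell short.

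No paired analysis was possible because each line has 1 peak list and the labels share only 1 replicate number between the lines. Leaving out each replicate was not run, as both Control samples share 1 list and the Myocd-LSD1 line has 1 sample. The 9 Myocd-LSD1 5′ UTR peaks limit every value of that class, and 37.1% of the Myocd-LSD1 peaks of the 3 classes rest on no more than 3 fragments.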
